A study of Mus musculus with 4 samples.

Results

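Chemokines are small secreted proteins that guide the movement of leukocytes, and 10 genes of this system were examined in mouse leukaemia cells labelled Ybx1 conditional knockout or wild type. The genes were 5 CC ligands (Ccl3, Ccl4, Ccl5, Ccl6 and Ccl9), 3 CXC ligands (Ppbp, Cxcl2 and Cxcl10) and 2 receptors (Ccr1 and Ccr2), chosen by symbol from a table of 28141 genes, and all 10 had a row and passed the filter on low values. They had been picked partly for large opposite differences between the genotypes, with Ccl5 low and Ccl6 and Ppbp high in the knockout. The values of these 10 genes are therefore a description, and no test of them is given.

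The cells came from the bone marrow of C57BL/6 mice and are labelled LSCs, in a study whose title concerns leukaemia stem cells of chronic myeloid leukaemia. There were 2 libraries of polyadenylated RNA from cells with a conditional knockout (cKO) and 2 from wild-type cells (WT). The deleted gene, Ybx1, encodes a nucleic acid binding protein with a cold shock domain. The sources used here do not give the driver of the deletion, the deleted exons, how leukaemia was induced, the ages or the number of mice behind each library. The labels do not tell whether each replicate was its own mouse. The p-values given therefore refer to the spread between these 4 libraries alone, and that spread may be technical. Levels and differences are on a log2 scale inferred from the noise between replicates, and a log2 difference is cKO minus WT.

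Ybx1 itself had log2 levels of 8.19 and 8.13 in the cKO libraries, against 9.31 and 9.41 in the WT libraries (difference -1.20, SE 0.08, limma adjusted p = 1.1e-11). Its transcript was thus 2.29-fold lower in cKO but still present, and these values do not tell how complete the deletion was. Of 15527 genes tested, 37.4% were called at a limma adjusted p under 0.05, 19.5% higher and 17.8% lower in cKO. Of 13 genes that mark haematopoietic stem and progenitor cells, 9 had a row, and Kit and Cd34 were among the 4 without one, so these defining markers could not be used to check the label. The macrophage receptor gene Adgre1 had a log2 level of 15.90 and 15.93 in cKO and of 15.81 and 15.83 in WT. Lyz2, the myeloid lysozyme gene, stood at 15.87 and 15.85 in cKO and at 13.61 in both WT libraries. In bulk RNA of this kind, fewer cells of a type and less RNA per cell cannot be told apart.

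Chemokine ligands bind receptors that cross the membrane several times and signal through inhibitory G proteins, and the names CC and CXC describe the spacing of the first cysteines of the ligand. CCL3, CCL5, CCL6 and CCL9 act on CCR1, CXCL2 and the processed product of PPBP on CXCR2, and CXCL10 on CXCR3. In marrow, CCR2 and its ligand CCL2 help monocytes leave for the blood, CXCR2 ligands draw out neutrophils, and CXCL12 holds CXCR4-bearing cells in place. Transcription of many ligand genes is driven by NF-kB and by interferon regulatory factors, whose binding sites lie close to the transcript start.

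The sequence before the transcript start is shown for 4 ligand genes, taken from RefSeq on GRCm38.p6, which lists a promoter for 8 of the 10 genes. Cxcl10 and Cxcl2 are shown because a search found NF-kB patterns in both and an interferon pattern in Cxcl10. Capitals in these sequences mark matches on either strand to the NF-kB pattern GGGNNNTTCC and the interferon-stimulated response pattern GAAANNGAAA.
Cxcl10, chr5:92348890-92349139, minus strand: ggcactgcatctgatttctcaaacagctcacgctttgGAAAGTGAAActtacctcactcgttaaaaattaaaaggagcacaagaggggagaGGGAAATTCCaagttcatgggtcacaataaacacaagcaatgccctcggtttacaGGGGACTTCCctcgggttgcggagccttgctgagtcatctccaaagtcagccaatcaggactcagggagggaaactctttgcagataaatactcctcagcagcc
Cxcl2, chr5:90903649-90903870, plus strand: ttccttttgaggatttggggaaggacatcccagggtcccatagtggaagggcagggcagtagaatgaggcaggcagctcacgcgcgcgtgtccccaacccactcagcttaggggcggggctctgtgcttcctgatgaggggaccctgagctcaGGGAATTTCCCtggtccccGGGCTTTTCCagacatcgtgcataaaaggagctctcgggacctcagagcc
Ccl6 and Ccl9 are shown because these neighbouring rodent genes resemble each other next to the transcript start and were both higher in cKO. Capitals in these sequences mark bases that are identical in an alignment of the pair, most of which lies past the start of Ccl9 and so outside its printed window.
Ccl6, chr11:83593088-83593337, minus strand: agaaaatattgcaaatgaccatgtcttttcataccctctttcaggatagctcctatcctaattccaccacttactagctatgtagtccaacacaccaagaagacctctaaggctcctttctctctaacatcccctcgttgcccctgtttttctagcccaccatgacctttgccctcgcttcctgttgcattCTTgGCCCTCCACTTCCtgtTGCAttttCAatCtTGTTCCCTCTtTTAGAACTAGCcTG
Ccl9, chr11:83578637-83578886, minus strand: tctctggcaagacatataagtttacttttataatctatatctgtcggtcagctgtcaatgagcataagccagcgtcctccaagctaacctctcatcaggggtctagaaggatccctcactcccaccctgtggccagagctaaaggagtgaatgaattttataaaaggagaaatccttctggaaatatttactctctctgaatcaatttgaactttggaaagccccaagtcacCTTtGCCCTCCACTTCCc

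Patterns were searched in the 250 bases before the start that RefSeq gives, counting -1 as the base before it. For Ccr2 that window overlaps the gene as GENCODE annotates it, so Ccr2 is left out here, and the RefSeq start of Cxcl2 lies past the end of the 222 bases printed. Of the other 7 genes with a window, which do not include Ccl4 and Ccl5, Cxcl10 alone held the interferon pattern, from position -213 to -204. The pattern was present in 2.98% of 32851 mouse promoter windows of 250 bases. Cxcl10 also held the NF-kB pattern from -159 to -150 and from -104 to -95, Cxcl2 held it from -97 to -87, counting both strands of an overlapping match, and from -78 to -69, and Ccl9 held it on the opposite strand from -35 to -26. That pattern was present in 4.65% of windows. The Ccl6 and Ccl9 windows aligned over 74 columns with 59 identical bases (79.7%), a stretch that runs on past the start of each gene. A match of letters is a description and does not show that a factor binds there.

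The CC ligand genes went in both directions in the same cells, with Ccl6 and Ccl9 higher and Ccl3, Ccl4 and Ccl5 lower in cKO. Ccl6 encodes a rodent ligand made by myeloid cells and had the highest level per kilobase of the 10 genes in cKO. It had log2 levels of 14.07 and 14.01 in the cKO libraries, against 12.47 and 12.46 in the WT libraries. Both cKO libraries lay well above both WT libraries, a 2.98-fold difference (log2 difference 1.58, SE 0.03). Ccl9, another rodent ligand of CCR1, stood at 12.06 and 12.05 in cKO and at 11.20 and 11.11 in WT. It was 1.87-fold higher in cKO, with no overlap of the groups (log2 difference 0.90, SE 0.04).

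Ccl3, also known as MIP-1alpha and as an inhibitor of stem cell proliferation in marrow, had log2 levels of 10.60 and 10.55 in cKO and of 11.51 and 11.47 in WT. It was 1.88-fold lower in cKO (log2 difference -0.91, SE 0.04), and the groups did not overlap. Its neighbour Ccl4 (MIP-1beta), an attractant of immune cells, stood at 10.26 and 10.34 in cKO and at 10.60 and 10.62 in WT. The Ccl4 groups were also apart, but by only 1.24-fold (log2 difference -0.31, SE 0.05). The log2 gap of Ccl3 over Ccl4 was 0.34 and 0.21 in the cKO libraries and 0.90 and 0.85 in the WT libraries.

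Ccl5 (RANTES), a ligand made by T cells and by many cells under inflammatory signals, had log2 levels of 4.14 and 4.98 in cKO and of 7.70 and 7.76 in WT. Both cKO libraries were far below both WT libraries, while the cKO libraries differed from each other by 0.84. The difference was 9.05-fold (log2 difference -3.18, SE 0.23), and only 2 of the 15527 tested genes had a lower value, of which Cxcl10 was 1. Without cKO replicate 1 the log2 difference was -2.76, and without cKO replicate 2 it was -3.60. Of 22 markers of T and NK cells, 18 lacked a row, the CD3 genes Cd3d, Cd3e and Cd3g among them. The summed level of the other 4 (Cd5, Lat, Gzmb and Il2rb) was 83.7 and 91.0 per 1000000 of the library sum in cKO and 168 per 1000000 in each WT library, and without Gzmb 58.0 and 60.0 in cKO and 83.6 and 85.9 in WT. Gzmb (log2 difference -1.44, SE 0.08, limma adjusted p = 4.3e-13) and Lat (-0.55, SE 0.08, limma adjusted p = 2.0e-06) fell, and the part of these cells in the Ccl5 value was not tested.

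**Figure D1:**
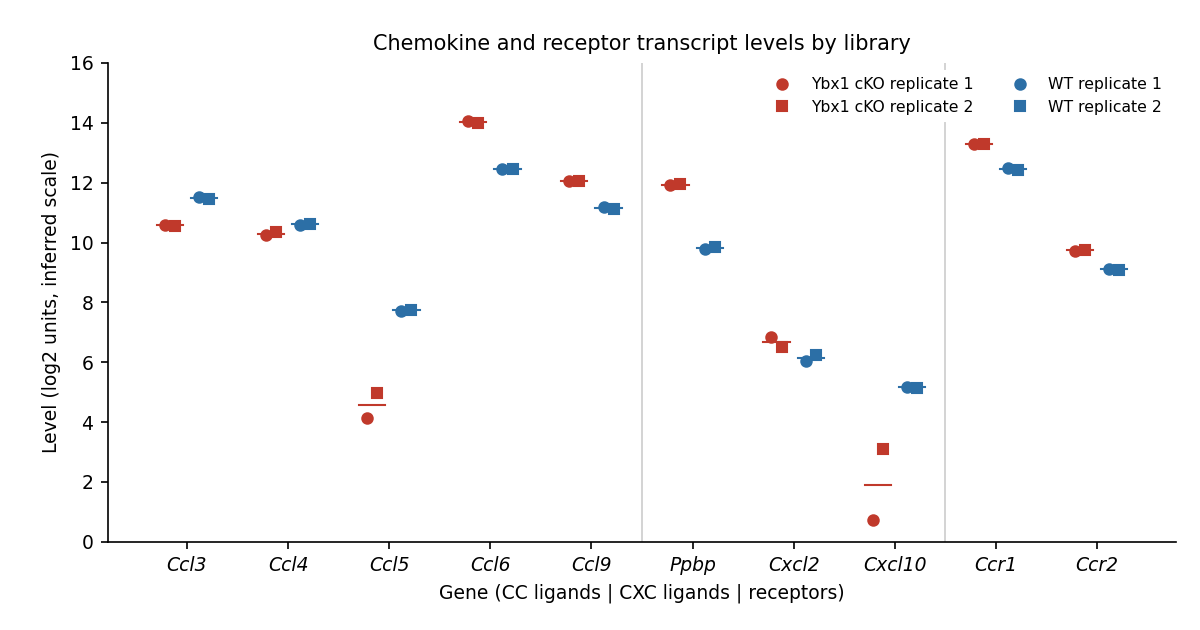
Log2 level (vertical axis) of each of the 10 genes (horizontal axis) in the 4 libraries, with cKO points left of WT points, circles for replicate 1, squares for replicate 2 and a short line at each group mean. The cKO and WT points of every gene are apart, and the cKO replicates are widest apart for Cxcl10, at 0.72 and 3.09.

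Among the CXC ligands, Ppbp was far higher, Cxcl2 slightly higher and Cxcl10 far lower in cKO. Ppbp encodes pro-platelet basic protein, which platelets store and cleave to the neutrophil attractant CXCL7. It had log2 levels of 11.91 and 11.94 in cKO and of 9.78 and 9.86 in WT, with the replicates of each group within 0.08 of each other. The difference was 4.29-fold (log2 difference 2.1, SE 0.04), and 23 tested genes had a larger positive difference.

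Markers of megakaryocytes and platelets other than Ppbp went both ways. Of 17 listed, 15 had a row and 14 were tested, of which 3 rose and 4 fell, where 19.5% and 17.8% of all tested genes did. Pf4, the platelet factor 4 gene beside Ppbp, stood at 10.67 and 10.62 in cKO and at 9.99 and 9.95 in WT (log2 difference 0.68, SE 0.05, limma adjusted p = 7.5e-11). F2rl2 rose by 1.33 (SE 0.04, limma adjusted p = 8.9e-19), while the integrin gene Itgb3 had a log2 difference of -1.90 (SE 0.12, limma adjusted p = 2.3e-12). The log2 level of Ppbp minus that of Pf4 was 1.24 and 1.32 in cKO and -0.20 and -0.09 in WT. The summed marker level was 965 and 985 per 1000000 in cKO and 801 and 806 per 1000000 in WT. Without F2rl2, left out after its values were seen, it was 619 and 633 in cKO and 649 and 655 in WT. That small gap in the other direction depends on the division by library sums. These sums were larger in cKO (12104617 and 12134026) than in WT (11157952 and 11074317), so no direction is read from it. The part of these cells in the Ppbp value was not tested. The platelet genes Treml1, Gp6 and Clec1b were near the bottom of the scale in all 4 libraries, the highest value being 1.19 for Clec1b. Other genes of the list were abundant. Itga2b had log2 levels of 11.28 and 11.41 in cKO and of 11.53 and 11.59 in WT (log2 difference -0.21). Selp had 11.58 in both cKO libraries and 11.35 and 11.26 in WT (log2 difference 0.28).

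Cxcl2 (MIP-2), a neutrophil attractant, had log2 levels of 6.83 and 6.51 in cKO and of 6.03 and 6.25 in WT. The groups did not overlap, although the lower cKO library was only a little above the higher WT library. The difference was 1.44-fold (log2 difference 0.53, SE 0.18), and it ranged from 0.37 to 0.69 when single libraries were left out, the lowest value being without cKO replicate 1.

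Cxcl10 (IP-10), an interferon-induced attractant of T cells, had log2 levels of 0.72 and 3.09 in cKO and of 5.18 and 5.13 in WT. The WT libraries were close together, and the cKO libraries were 2.37 log2 units apart but both below WT. The difference was 9.51-fold (log2 difference -3.25, SE 0.52). It was -2.07 without cKO replicate 1 and -4.43 without cKO replicate 2, so its size rests on which cKO library is used. In per 1000000 terms Cxcl10 was rare, at 0.136 and 0.702 in cKO and 3.26 and 3.16 in WT. Its promoter sequence, shown above, holds both kinds of element.

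The receptor genes Ccr1 and Ccr2 were both higher in cKO. Ccr1 encodes the myeloid receptor shared by CCL3, CCL5, CCL6 and CCL9, and it had log2 levels of 13.30 and 13.28 in cKO and of 12.49 and 12.43 in WT. It was 1.78-fold higher in cKO, with the groups apart (log2 difference 0.83, SE 0.03). Ccr2, the receptor that guides monocytes out of marrow, stood at 9.73 and 9.75 in cKO and at 9.13 and 9.09 in WT. It was 1.55-fold higher in cKO, again with no overlap (log2 difference 0.63, SE 0.06). Both receptors moved by a similar amount, so that Ccr1 stood above Ccr2 by 3.57 and 3.53 log2 units in cKO and by 3.36 and 3.34 in WT.

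Markers of myeloid cells differed beside these receptors and ligands. Among markers of monocytes and macrophages, 5 of 11 tested rose and 2 fell, beside 19.5% and 17.8% of all tested genes. The rises were Lyz2, Adgre1, Itgam (log2 difference 1.63), Cd14 (1.17) and Cd68 (0.77). The falls were Ms4a6c (-1.57) and Ly6c1 (-1.31). The list's summed level was 10539 and 10569.8 per 1000000 in cKO and 6618 and 6730 in WT, a difference carried mostly by Lyz2. Without Lyz2, left out after its values were seen, the sum was 5601 and 5689 in cKO and 5495 and 5598 in WT. Adgre1, the largest of the rest, had 5049.6 and 5138 per 1000000 in cKO and 5165 and 5264 in WT, so that its direction per 1000000 is opposite to its log2 difference of 0.09. It makes up most of the sum without Lyz2, which therefore hides the smaller markers. Of these, Cd68 had 387 and 384 per 1000000 in cKO and 247 and 246 in WT. Cd14 had 137 and 141 in cKO and 65.3 and 69.9 in WT. The 2 markers that fell were at 1.98 per 1000000 or less in every library. Of 15 mature neutrophil markers 7 had a row, 6 of them higher in cKO and Padi4 lower by the test, against the same shares of all tested genes. Their summed level was 1307 and 1322 per 1000000 in cKO and 500.4 and 535 in WT, and without Mmp9 625 and 639 in cKO and 274 and 294 in WT. S100a8, S100a9 and Ly6g had no row. The monocyte genes Csf1r and Fcgr1 did not pass the test (log2 differences 0.07 and 0.35). The part of these markers in the values of Ccl6, Ccl9, Ccr1 and Ccr2 was not tested.

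Across the 10 genes, 6 had both cKO libraries above both WT libraries and 4 had both below. Of all tested genes 65.1% had groups that did not overlap, 32.7% with cKO higher and 32.4% with cKO lower, and since the genes were picked on this contrast nothing is read from their count. The median log2 difference of the 10 genes was 0.58, beside 0.003 over all tested genes, and 4 of the 10 differed by at least 1 log2 unit, against 7.08% of all tested genes. Large differences were part of how the genes were picked, so nothing is read from these values either. The direction of each of the 10 genes was the same under quantile normalization and with medians of the tested genes set equal. Equal medians shift every difference by the same small amount and could not have changed a direction here. Leaving out a library cannot change it either, because the groups of each gene were apart.

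**Figure D2:**
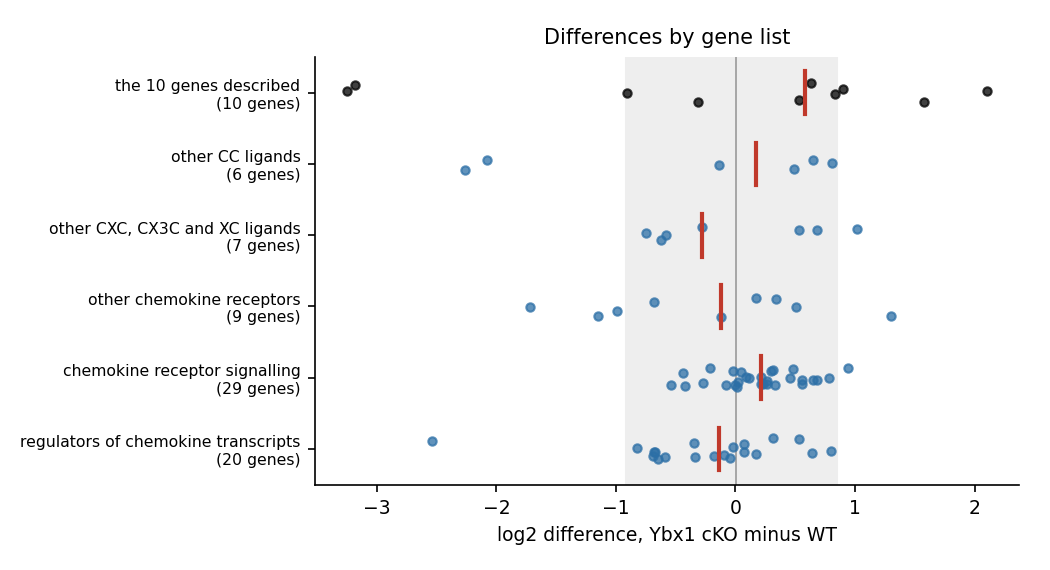
Log2 difference, cKO minus WT (horizontal axis), of each tested gene in 6 gene lists (rows), with the list median as a red line, the median of all tested genes as a grey line and the span from their percentile 5 to percentile 95 (-0.92 to 0.85) in grey. The 10 genes described (black, top row) run from -3.25 to 2.1.

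Levels of different genes were compared per kilobase of exon, as level per 1000000 of the library sum and per kilobase. In cKO the order of the group means was Ccl6 at 775, Ppbp at 296, Ccr1 at 291, Ccl3 at 164, Ccl4 at 158 and Ccl9 at 115. Below these came Ccr2 at 10.4, Cxcl2 at 4.09, Ccl5 at 2.11 and Cxcl10 at 0.186 per 1000000 and per kilobase. Neighbours that lay close together in cKO were Ppbp, with library values of 294 and 298, and Ccr1, with 293 and 289, and likewise Ccl3 (168 and 161) and Ccl4 (154 and 161). In WT the order was Ccl3 at 337, Ccl6 at 283, Ccl4 at 213, Ccr1 at 179, Ppbp at 75.3 and Ccl9 at 67.3. It ended with Ccl5 at 19.9, Ccr2 at 7.35, Cxcl2 at 3.08 and Cxcl10 at 1.42. On the inferred scale Ccl6 thus stood first in cKO and Ccl3 first in WT. The order of different genes depends on the log base of the score, and it was not computed under the plain log2 reading.

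The summed level per kilobase of the 8 ligands was 1529 and 1501 per 1000000 in the cKO libraries and 1001 and 999.8 in the WT libraries. Ccl6 made up 51.8% and 50.5% of it in cKO and 28.3% in each WT library. Ppbp made up 19.2% and 19.9% in cKO and 7.27% and 7.78% in WT. Ccl3 made up 11% and 10.7% in cKO and 34.0% and 33.4% in WT, and Ccl4 10.1% and 10.8% in cKO and 21.1% and 21.5% in WT. Ccl9 kept a similar share, with 7.56% and 7.67% in cKO and 6.90% and 6.56% in WT. Ccl5 made up 0.0989% and 0.180% in cKO and 1.94% and 2.05% in WT. These sums and shares hold for the inferred scale, and other readings of the score were not tried for them.

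**Figure D3:**
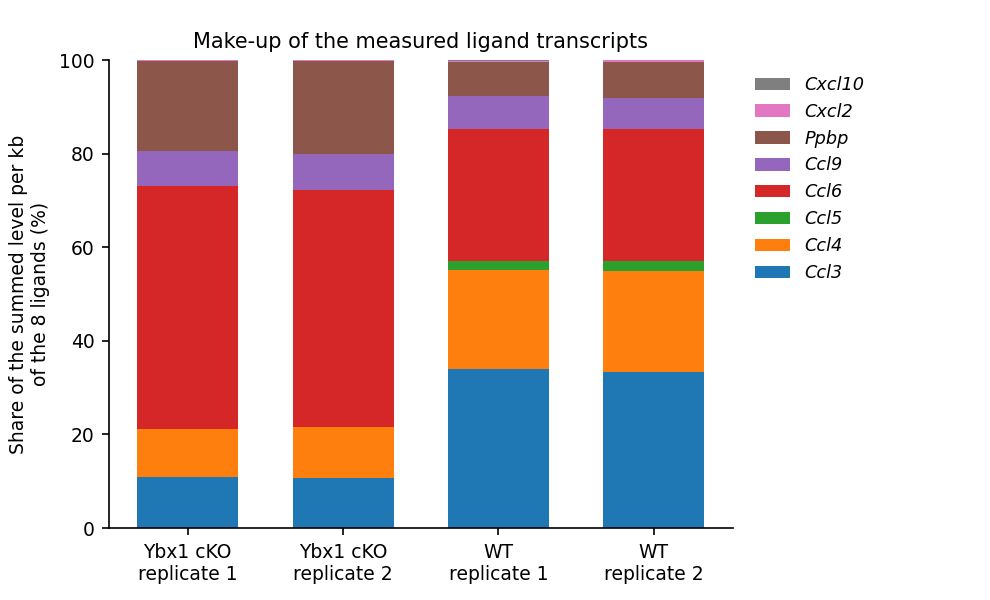
Share of the summed level per kilobase of the 8 ligands (vertical axis, percent) taken by each ligand in the 4 libraries (bars, cKO left of WT). Ccl6 and Ppbp take more of the bar in cKO, at 51.8% and 19.2% in replicate 1, and Ccl3 and Ccl4 take more in WT, at 34.0% and 21.1% in replicate 1.

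The 5 CC ligand genes lie in a row on mouse chromosome 11 (GRCm38, GENCODE M21), over 138.9 kb, and genes with opposite differences are interleaved there. Ccl5 lies from 83525778 to 83530518, Ccl9 from 83572919 to 83578636, Ccl6 from 83587882 to 83593087 and Ccl3 from 83647844 to 83649355, all on the minus strand, and Ccl4 from 83662584 to 83664683 on the plus strand. Ordered by position their log2 differences were -3.18, 0.90, 1.58, -0.91 and -0.31. Of the 9 other tested genes with a start within 200 kb of any of them, 3 rose and 0 fell at a limma adjusted p under 0.05, where 19.5% and 17.8% of all tested genes did. By unadjusted p under 0.05 the number of falls was also 0.

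The 3 were Wfdc17, Wfdc18 and Wfdc21, genes for small secreted proteins of the whey acidic protein family. Wfdc17 starts 173.5 kb from Ccl5 and had log2 levels of 14.01 and 13.94 in cKO and of 12.26 and 12.22 in WT (log2 difference 1.73, SE 0.03, limma adjusted p = 1.3e-23). Wfdc18 stood at 10.79 and 10.75 in cKO and at 7.76 and 7.91 in WT (log2 difference 2.94, SE 0.07, limma adjusted p = 3.2e-20). Wfdc21 stood at 5.71 and 5.32 in cKO and at 4.01 and 4.15 in WT (log2 difference 1.44, SE 0.29, limma adjusted p = 0.00034). The groups were apart for each of the 3. The transcript E230016K23Rik overlaps Ccl6 on the other strand, and the sources used here do not say whether reads were counted by strand. Its log2 levels were 3.54 and 3.04 in cKO and 2.58 and 2.75 in WT, far below those of Ccl6.

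**Figure D4:**
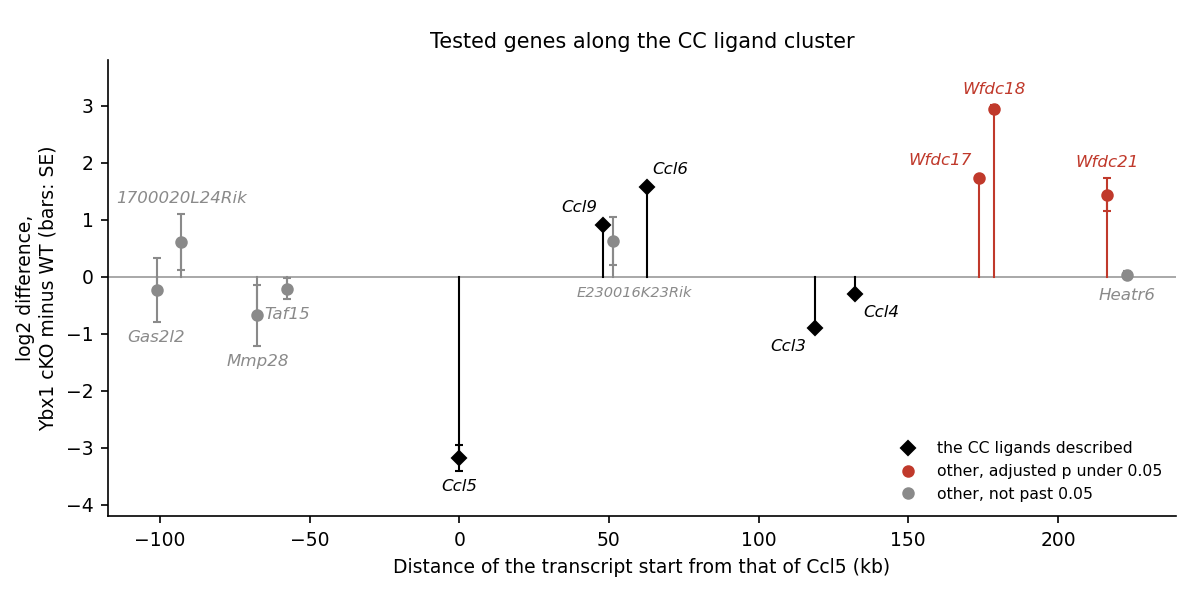
Log2 difference, cKO minus WT, with its SE (vertical axis), of each tested gene against the distance in kb of its transcript start from that of Ccl5 (horizontal axis). Stems run from 0. Black diamonds are the CC ligands described, red circles other genes with a limma adjusted p under 0.05 and grey circles the rest. Ccl9 and Ccl6 (0.90 and 1.58) lie between Ccl5 (-3.18) and Ccl3 (-0.91), and Wfdc17, Wfdc18 and Wfdc21 stand above 0 at the right (1.73, 2.94 and 1.44).

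The CXC ligands lie on chromosome 5, with Ppbp from 90768518 to 90770063, Cxcl2 from 90903871 to 90905938 and Cxcl10 farther along from 92346638 to 92348889 on the minus strand. Of 15 other tested genes near them 3 rose and 2 fell, beside 19.5% and 17.8% of all tested genes. Pf4 and Cxcl15, which lie between Ppbp and Cxcl2, and Rassf6 were the rises, and Sdad1 and Nup54 near Cxcl10 the falls (log2 differences -0.34 and -0.33). Rassf6, with a log2 difference of 0.48, lost its call without cKO replicate 2 and without WT replicate 1 (difference from 0.31 to 0.64 and adjusted p from 0.00046 to 0.14 over the 11 alternatives). Cxcl15 (lungkine) stood at 4.18 and 4.46 in cKO and at 3.35 and 3.26 in WT (log2 difference 1.02, SE 0.36, limma adjusted p = 0.030). Cxcl3, between these genes, had 7.89 and 7.69 in cKO and 8.0 and 8.14 in WT and did not pass (log2 difference -0.28, SE 0.11, limma adjusted p = 0.051). The gene Art3 overlaps Cxcl10 on the other strand and had log2 levels of 0.18 and -0.35 in cKO and of -0.01 and 0.01 in WT. The receptors lie on chromosome 9, with Ccr1 from 123962124 to 123968692 on the minus strand and Ccr2 from 124101950 to 124113557 on the plus strand.

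The rest of the chemokine system was taken from 3 lists of 52 other ligand and receptor genes, of which 33 had a row and 22 passed the filter on low values. Of these 22, 6 rose and 6 fell, which is 54.5% beside 37.4% of all tested genes, and the median log2 difference was -0.13 beside 0.003. With no filter on low values 5 of 33 were called, beside 3941 of 28141 genes, shares that lay close together. Of 6 tested CC ligands 2 rose and 2 fell. Ccl22 and Ccl17, the ligands of CCR4 known from dendritic cells and macrophages, were both low and lower in cKO. Ccl22 stood at 0.73 and 1.12 in cKO and at 3.06 and 3.32 in WT (log2 difference -2.26, SE 0.47, limma adjusted p = 0.00041). Ccl17 stood at 0.21 and 0.71 in cKO and at 2.26 and 2.82 in WT (log2 difference -2.08, SE 0.51, limma adjusted p = 0.0018).

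Ccl25, the ligand of CCR9, stood at 8.39 and 8.16 in cKO and at 7.63 and 7.30 in WT (log2 difference 0.81, SE 0.12, limma adjusted p = 6.7e-06). Ccl2, the ligand of CCR2, stood at 6.88 and 7.18 in cKO and at 6.56 and 6.53 in WT (log2 difference 0.49, SE 0.16, limma adjusted p = 0.018). Ccl7 (log2 difference -0.14) and Ccl24 (0.65) did not pass. Of 7 tested CXC and CX3C ligands Pf4 and Cxcl15 rose and 0 fell. Cxcl3, Cxcl11, Cxcl16, Cxcl17 and Cx3cl1 did not pass, with log2 differences of -0.28, -0.75, 0.53, -0.62 and -0.58, and Cxcl1 and Cxcl12 had no row. Ccl2 lost its call without cKO replicate 2, without WT replicate 1 and without WT replicate 2, and its adjusted p ran from 0.0021 to 0.16 over the 11 alternatives. Cxcl15 lost its call without the same 3 libraries (adjusted p from 0.019 to 0.13), and Ccl17 without WT replicate 2 (adjusted p from 0.00044 to 0.071). Cxcl3 passed without cKO replicate 1 (adjusted p from 0.0084 to 0.34 over its alternatives).

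Of 9 tested receptors other than Ccr1 and Ccr2, 2 rose and 4 fell. Ccr7, which brings cells into lymphoid tissue, stood at 6.64 and 6.78 in cKO and at 7.69 and 7.71 in WT (log2 difference -0.99, SE 0.14, limma adjusted p = 1.8e-06). Ccrl2, an atypical receptor that binds chemerin, stood at 7.38 and 7.47 in cKO and at 8.06 and 8.14 in WT (log2 difference -0.68, SE 0.11, limma adjusted p = 2.4e-05). Cxcr5, the receptor of CXCL13, stood at 1.33 and 2.18 in cKO and at 3.44 and 3.51 in WT (log2 difference -1.72, SE 0.45, limma adjusted p = 0.0038). Cxcr4, the CXCL12 receptor, stood at 3.22 and 3.42 in cKO and at 4.46 and 4.49 in WT (log2 difference -1.15, SE 0.36, limma adjusted p = 0.012). The groups were apart for each of these 4 genes.

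Cxcr2, the neutrophil receptor of CXCL2 and the PPBP product, rose and stood at 8.24 and 8.0 in cKO and at 7.65 and 7.92 in WT (log2 difference 0.34, SE 0.12, limma adjusted p = 0.025). Ccr4 (log2 difference -0.12), Ccr9 (0.51) and Ackr4 (0.17) did not pass, and Cxcr3, the CXCL10 receptor gene, had no row. Cxcr2 lost its call without cKO replicate 1 and without WT replicate 1 (adjusted p from 0.0011 to 0.32 over the 11 alternatives). Cxcr4 lost its call without either WT library (adjusted p from 0.0073 to 0.085 over its alternatives). Cxcr5 lost its call with no filter on low values and with 1 prior variance for all levels (adjusted p from 0.00019 to 0.12).

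**Figure D5:**
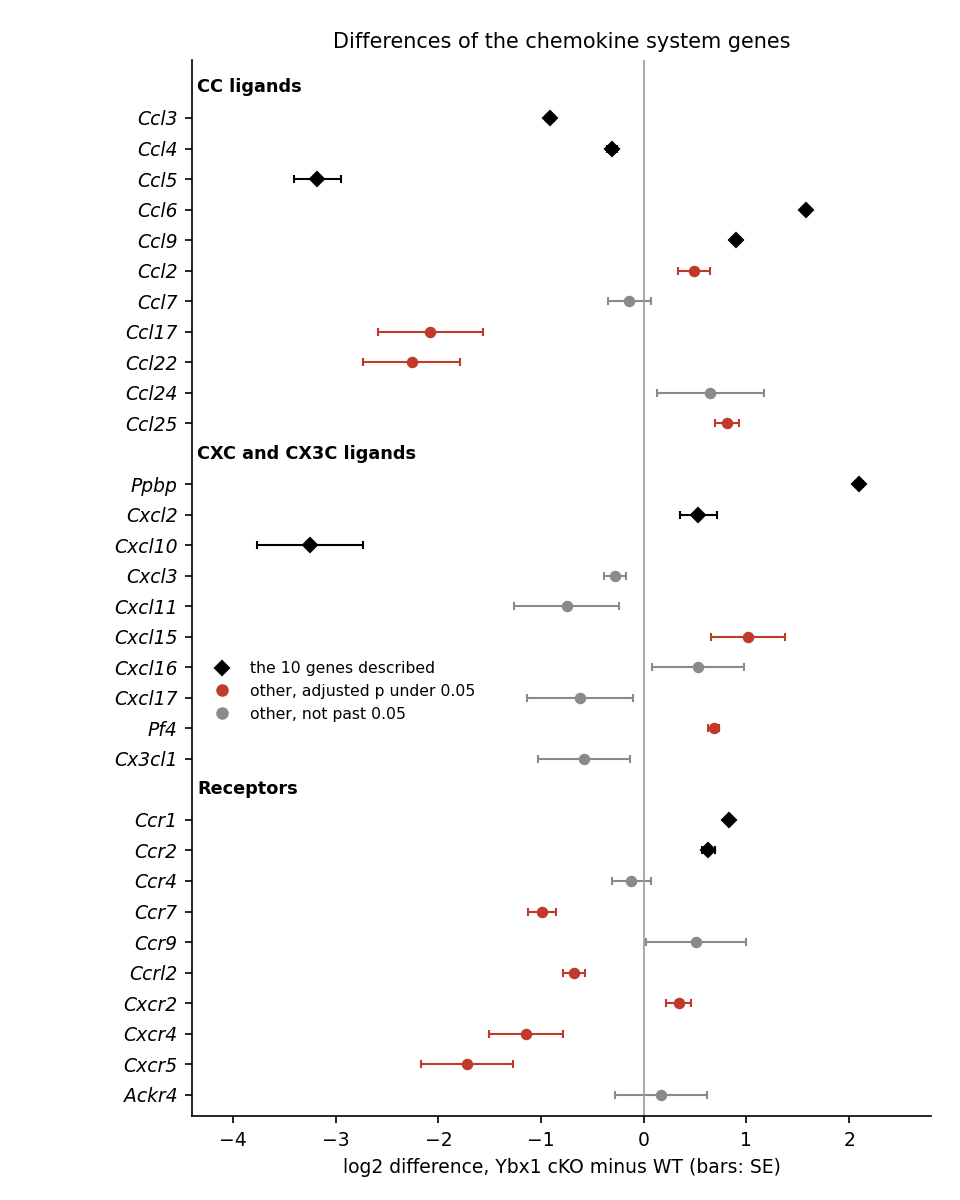
Log2 difference, cKO minus WT, with its SE (horizontal axis), of the 10 genes described (black diamonds, not tested) and of the other tested chemokine system genes reported (red circles for a limma adjusted p under 0.05, grey circles for the rest), in rows by role. Values run from -3.25 for Cxcl10 to 2.1 for Ppbp, and each role holds genes on both sides of 0.

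Genes that relay receptor signals went both ways, with more rises than falls. Of 29 tested genes of this list 13 rose and 4 fell, 58.6% beside 37.4% of all tested genes, with a median log2 difference of 0.21 beside 0.003. Under quantile normalization the list median was 0.111 beside 0.005 over all tested genes, with 12 rises and 5 falls. The G protein gene Gng2 rose by 0.94 (SE 0.15, limma adjusted p = 1.9e-05), Gnai2, which encodes the inhibitory G protein alpha subunit of leukocytes, by 0.68 (SE 0.07, limma adjusted p = 1.4e-08) and Gnb1 by 0.65 (SE 0.06, limma adjusted p = 1.2e-09). Rgs18, a brake on G protein signals, stood at 13.16 and 13.12 in cKO and at 12.33 and 12.40 in WT (log2 difference 0.78, SE 0.03, limma adjusted p = 1.9e-16). The falls were Grk6 (log2 difference -0.54), a receptor kinase, Tln1 (-0.44) and Rap1b (-0.42), which take part in integrin activation, and Dock2 (-0.27), the exchange factor for RAC in migrating leukocytes. Grk6 lost its call without cKO replicate 1 and without WT replicate 2 (adjusted p from 8.6e-05 to 0.21 over the 11 alternatives). Fermt3 rose by 0.21 as deposited but stood at -0.01 under quantile normalization, where it was not called (adjusted p from 3.2e-25 to 0.51 over the 11 alternatives).

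Regulators of chemokine transcripts also went both ways, with more falls than rises. Of 20 tested genes 4 rose and 9 fell, 65% beside 37.4% of all tested genes, with a median log2 difference of -0.14. Irf7, which carries interferon responses, stood at 9.73 and 9.70 in cKO and at 12.27 and 12.24 in WT (log2 difference -2.54, SE 0.04, limma adjusted p = 1.9e-23). Irf1 and Irf3 did not pass (log2 differences 0.07 and -0.10). Of the NF-kB genes Relb (log2 difference -0.69, SE 0.09, limma adjusted p = 1.9e-06) and Nfkb2 (-0.67, SE 0.04, limma adjusted p = 1.0e-13) fell. Nfkbia, which encodes an inhibitor of NF-kB, also fell (log2 difference -0.35, SE 0.04, limma adjusted p = 3.4e-07), while Nfkb1 rose by 0.31 (SE 0.04, limma adjusted p = 3.8e-07) and Rela by 0.17 (SE 0.06, limma adjusted p = 0.023). The Rela call was lost without cKO replicate 2, without WT replicate 1 and under quantile normalization (adjusted p from 0.0016 to 0.33 over the 11 alternatives). Spi1, the gene of the myeloid factor PU.1, rose by 0.53 (SE 0.05, limma adjusted p = 9.6e-09). Of the genes whose products destabilize inflammatory mRNA, Zfp36 rose by 0.64 (SE 0.10, limma adjusted p = 1.7e-05) and Zc3h12a fell (log2 difference -0.68, SE 0.17, limma adjusted p = 0.0023). The Zc3h12a call was lost with no filter on low values and with 1 prior variance for all levels (adjusted p from 8.7e-06 to 0.092 over the 11 alternatives).

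The genes whose pattern over the 4 libraries was most like that of 3 of the chemokines were found among 8959 others at 5 or more per 1000000, by the Euclidean distance of log2 levels centred on each gene's mean. For Ccl6 they were Gm28809, Sfxn5 and Stfa3, at distances of 0.0504, 0.0654 and 0.0807 log2 units. For Ppbp they were Lyz2, Tnfrsf26 and Gm8189, at 0.161, 0.203 and 0.238. For Ccl5 none came as close, the nearest being Gm10719, Irf7 and Gm10715 at 0.834, 0.887 and 0.952. With 4 libraries in 2 groups, such a likeness is mostly a like difference between the groups and is a description only.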

How the data were processed

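RNA of 2 Ybx1 cKO and 2 WT libraries was sequenced as polyadenylated mRNA. The submitters' processing notes name CASAVA, HISAT2 2.1.0, featureCounts, DESeq2 and GRCm38, with no role or order. The authors deposited 1 log-scale score per gene and library for 28141 genes, with no counts, so depth is unknown and no interval of counting error can be given. No label gives the base of the score. Of 3 readings tried, the spread between replicates came closest to counting noise when the score was taken as a log2 level divided by the natural log of 2 (median ratio 1.31 in cKO and 1.10 in WT, against 5.94 and 4.85 for plain log2), so scores were multiplied by 0.693. Read as plain log2, every difference would be 1.44 times as large.

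The 15527 genes whose score reached 1 in 2 or more libraries were fitted with limma 3.58.1 in R 4.3.3 (prior variance following the level, two-sided, Benjamini-Hochberg adjustment over all tested genes, threshold 0.05). The fit was tested on simulated data. Levels per 1000000 are back-transformed levels divided by the library's sum (12104617 and 12134026 in cKO, 11157952 and 11074317 in WT), and levels per kilobase use exon lengths of GENCODE M21. Promoter windows came from RefSeq on GRCm38.p6 and were searched with Python 3.11.15, and Ccl6 and Ccl9 were aligned with Biopython 1.88.

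The 10 genes and all lists were chosen with earlier results of these data known. Named are the 10 genes, Ybx1, every tested gene of the 3 other chemokine lists, up to 4 called genes with the largest difference in each direction of the signalling and regulator lists, called neighbours with an absolute log2 difference of at least 1, the defining markers that were highest, lowest or without a row, and the 3 genes most like Ccl5, Ccl6 and Ppbp. Rassf6, Sdad1, Nup54, Cxcl3 as a neighbour, the overlapping E230016K23Rik and Art3, Irf1, Irf3, Nfkb2, Nfkbia, Fermt3 and further marker genes were named after their values were seen. Of the genes this rule names, 2 are counted in their lists and not reported here. Alternatives were other filters, variance priors and scalings, the replicate number as a block, and leaving out each library.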

Additional observations from a re-analysis of the deposited data

How the results depend on the processing

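The 10 genes kept their direction in all 70 alternative values (plain log2 reading, quantile normalization, equal medians and each library left out), and 21 of these values moved by more than the spread between replicates. Much of this was fixed in advance. The plain log2 reading only multiplies each difference. With the groups of all 10 genes apart, leaving out a library cannot change a direction, nor move a value by more than that spread. Equal medians shift every difference by the same small amount, and Ccl4, the smallest of the 10, went from -0.31 to -0.25. Of these alternatives only quantile normalization could have changed a direction. Read as plain log2, the log2 difference was -4.58 for Ccl5, 2.28 for Ccl6 and 3.03 for Ppbp. Of 55 alternative counts of called genes, 48 were within 1.5 times the main count and 7 were lower. With 1 prior variance for all levels, 2267 genes were called in place of 5803, of which 2080 were among the 5803, and 7 were called among the other chemokine ligands and receptors (12 in the main analysis), 7 among the signalling genes (17) and 7 among the regulators (13). With no filter on low values, 3941 of 28141 genes were called. In that setting 5 of 33 were called among the other ligands and receptors and 5 of 43 among the neighbouring genes (9 of 27 in the main analysis). Both shares lay near that of all genes. Calls were followed through the alternatives for the chemokine, signalling and regulator lists and the neighbouring genes, and not for the other named genes. Of the named genes followed, Ccl2, Ccl25, Cxcr2, Cxcr5, Grk6, Dock2, Rap1b, Fermt3, Nfkb1, Nfkbia, Rela, Zc3h12a, Rassf6, Sdad1 and Nup54 lost their call under the single prior variance. With no filter, Ccl2, Ccl17, Cxcl15, Cxcr2, Cxcr4, Cxcr5, Grk6, Rela, Zc3h12a, Rassf6 and Nup54 lost theirs. The cause of these shifts was not tested. With each library left out in turn, where the lone library of a group is assumed to vary like the other group, calls ranged from 4672 to 5810 over all genes, from 7 (without WT replicate 1) to 11 among the other ligands and receptors, from 15 to 17 among signalling genes, from 12 to 13 among regulators and from 7 to 9 among neighbours. With the replicate number as a block, 6026 genes were called in all, 13 among the other ligands and receptors, 17 among signalling genes, 13 among regulators and 10 among neighbours. The deviations of same-numbered libraries had a correlation of 0.0127, and with only 2 pairs the numbers are not shown to pair the libraries. With 2 libraries a group, unknown depth and an inferred scale, sizes of low genes such as Cxcl10, Ccl17 and Ccl22 are the least certain.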

Other observations

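Markers of other cell types that the marrow cells could hold were mostly low or without a row. Of all tested genes 19.5% rose and 17.8% fell, and with so few markers tested in each list nothing is read from the counts below. Of 11 dendritic cell markers 2 had a row, and Cd74, the invariant chain gene, rose (log2 difference 0.85, SE 0.05, limma adjusted p = 2.2e-13). Of 10 B cell markers 2 had a row, and Cd79b rose by 0.26 (limma adjusted p = 0.043). Of 11 basophil, mast cell and eosinophil markers 4 had a row, of which Cpa3 rose (log2 difference 0.14) and Hdc and Gata2 fell (-1.16 and -0.43). Of 12 erythroid markers 4 had a row, of which Hemgn, Tfrc and Gata1 fell (log2 differences -1.31, -0.51 and -0.22). Of 7 tested endothelial and stromal markers Pecam1 and Tek fell (log2 differences -0.85 and -1.44). Of 9 tested stem and progenitor markers Ly6a, Mecom and Gata2 fell (log2 differences -0.69, -0.60 and -0.43) and Mycn rose by 0.28.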
